A study of Mus musculus with 6 samples.

Results

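Epcam, the membrane serine proteases St14 and Prss8, and their inhibitors Spint1 and Spint2 are 5 genes of the epithelial cell surface, and their transcripts were followed after Snail induction in differentiating mouse ESCs. The genes were chosen with earlier results of these data known. The members were taken by name, as all probe sets of the array whose only annotated gene symbol is one of these 5. That gave 7 probe sets of 45037, and the 5 genes are among 18193 genes read by a probe set with a single symbol. All 5 genes passed the filter on low signal and were among the 14755 genes tested.

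A2.Snail cells are a single line of A2lox mouse ESCs that carry a Snail transgene under the control of doxycycline (dox). They were grown as embryoid bodies in serum with Dickkopf (DKK), a secreted inhibitor of Wnt signaling, so Wnt inhibition is common to every culture here. The DKK + dox cultures received 250 ng/mL dox at day 2, and the DKK cultures received none. RNA was taken 6, 12 and 24 hours later, at days 2.25, 2.5 and 3, and each condition and time is 1 Affymetrix array, so the 6 arrays hold no replicate. No array had dox without the Snail transgene, and an effect of dox and an effect of Snail cannot be told apart. The probe set of Snai1 itself stayed between 10.9 and 32.9 on all arrays, under the low-signal limit of 37.2 (the 40th percentile of all values). It therefore gives no check of the induction, and whether it reads the transgene was not tested. Cdh1, which encodes E-cadherin, fell with dox in the fit described below (difference -1.25, standard error 0.17, adjusted p = 0.00456 from limma). As a check of the labelled cell type, the pluripotency genes Pou5f1 and Sox2 were read at intensities of 5672 to 6764 and 4574 to 5991 over the 6 arrays. This check does not mean that every ESC marker was stable. Without dox, Zfp42 read 4141 at 6 hours but only 495.5 at 24 hours. With dox its readings at these times were 4237 and 516. An embryoid body is a mixture of cells, so fewer cells that express a gene and less RNA per cell cannot be told apart.

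The products of these genes form a pathway at the surface of epithelial cells. St14 encodes matriptase, a transmembrane serine protease, and Prss8 encodes prostasin, a serine protease held to the membrane by a lipid anchor. These proteases can each activate the zymogen of the other. Spint1 and Spint2 encode HAI-1 and HAI-2, membrane-bound inhibitors with Kunitz domains that block both proteases and were first known as inhibitors of the activator of hepatocyte growth factor. Epcam encodes an adhesion glycoprotein of epithelia and ESCs that binds claudin-7 and can be cleaved by matriptase, and loss of EPCAM or of SPINT2 in people causes congenital diarrhea with a damaged gut epithelium. Snail is a zinc finger repressor that binds E-boxes with the core CAGGTG, as known from the promoter of E-cadherin.

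The promoters of the 5 genes were searched for this core as a description. RefSeq promoter windows (assembly GRCm38.p6, 250 bases before to 50 after the transcript start) matched 3 of the 5 genes, Epcam, Spint1 and Spint2. CAGGTG was searched on both strands, which is CAGGTG or CACCTG on the strand of the gene. Epcam (chromosome 17, 87635979 to 87651127) has 2 matches, which begin 187 and 19 bases before its start. The sequence is shown on the strand of the gene, 5′ to 3′, over the 250 bases before the start (chr17:87635729-87635978, plus strand), with the matches in capitals.

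Epcam: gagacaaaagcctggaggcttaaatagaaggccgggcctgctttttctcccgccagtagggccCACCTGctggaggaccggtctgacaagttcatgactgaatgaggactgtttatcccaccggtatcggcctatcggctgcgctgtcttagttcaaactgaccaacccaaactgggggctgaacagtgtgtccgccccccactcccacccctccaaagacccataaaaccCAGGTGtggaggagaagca

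Spint2 (chromosome 7, 29256330 to 29282059, minus strand) has 3 matches, which begin 74, 55 and 9 bases before the start at 29281977 that the window uses. All 3 lie inside the annotated extent of the gene, which has a start further upstream. They are shown in 2 stretches of 30 bases on the strand of the gene, chr7:29282024-29282053 and chr7:29281978-29282007, with the matches in capitals.

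Spint2, upstream pair: gcCAGGTGcaggccgcagagcCAGGTGcgg
Spint2, next to the start: gccgcatctgccccgccccgcCAGGTGcgc

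Spint1 (chromosome 2, 119237360 to 119249535) has no match in its window, and its 250 bases before the start (chr2:119237110-119237359, plus strand) are shown for comparison.

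Spint1: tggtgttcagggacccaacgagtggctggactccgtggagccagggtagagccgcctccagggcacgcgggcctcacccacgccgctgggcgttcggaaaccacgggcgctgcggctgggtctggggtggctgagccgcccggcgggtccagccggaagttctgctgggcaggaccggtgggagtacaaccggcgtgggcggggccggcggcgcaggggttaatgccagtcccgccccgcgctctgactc

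**Figure D1:**
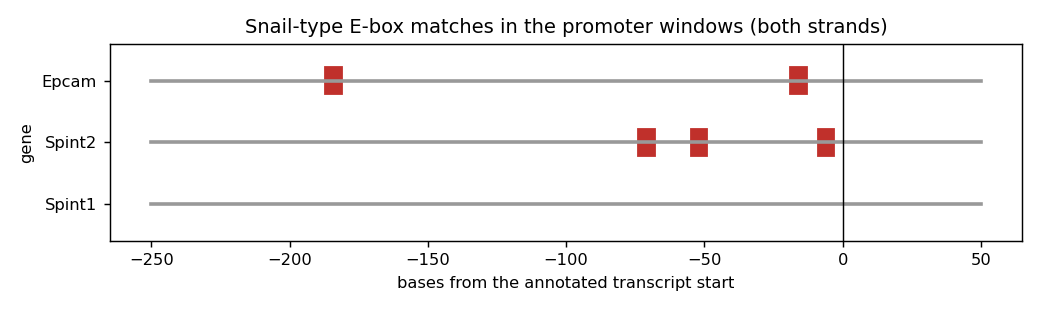
Positions of the CAGGTG or CACCTG matches (red boxes) in the promoter windows of Epcam, Spint2 and Spint1 (grey lines), in bases from the annotated transcript start (vertical line at 0). Epcam has 2 matches, Spint2 has 3 close to the start, and Spint1 has 0.

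Of the 32851 promoter windows of this length, 20.2% hold at least 1 match, 2.88% at least 2 and 0.365% at least 3. A match describes letters in the window and is not a measured binding site. Spint1, with no match in this window, was also lower with dox (values below). Whether the matches bear on the differences was not tested. No chromatin or binding data were analysed here.

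With Snail induced, all 5 genes were lower than in DKK at 6, 12 and 24 hours, and all 5 fell in the test. Here fell and rose mean called lower or higher with dox than in DKK, not a change over time. A difference is the DKK + dox value less the DKK value, each as log2(intensity + 20.6). The offset of 20.6, the 25th percentile of all values, makes the differences of low genes smaller. limma was fitted over all 14755 genes with the time point as a block and a dox difference in proportion to hours. Fitted differences are read from that trend at 24 hours, and amounts given below as fell by or rose by are fitted. For all 5 members the fitted value was more negative than the measured 24 hour difference, as for Spint1 (-1.98 against -1.60). The measured gap did not widen from 12 to 24 hours for Spint1 (-1.64 and -1.60) or Prss8 (-1.61 and -1.46), unlike the fitted trend. At an adjusted p under 0.05, 5 of 5 members were called lower, against 6.38% of all genes tested. The members were chosen with earlier results of these data known. This count and the later counts of members therefore describe these genes and are no independent support. Only 2 residual degrees of freedom were left, and the p-values hold no spread between replicate cultures, only departure from the trend. With a difference held constant over time 0 of the 5 passed (adjusted p 0.0573 to 0.0994 from limma, all 5 with an unadjusted p under 0.05), and without limma's intensity trend only St14 passed (adjusted p = 0.0452).

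**Figure D2:**
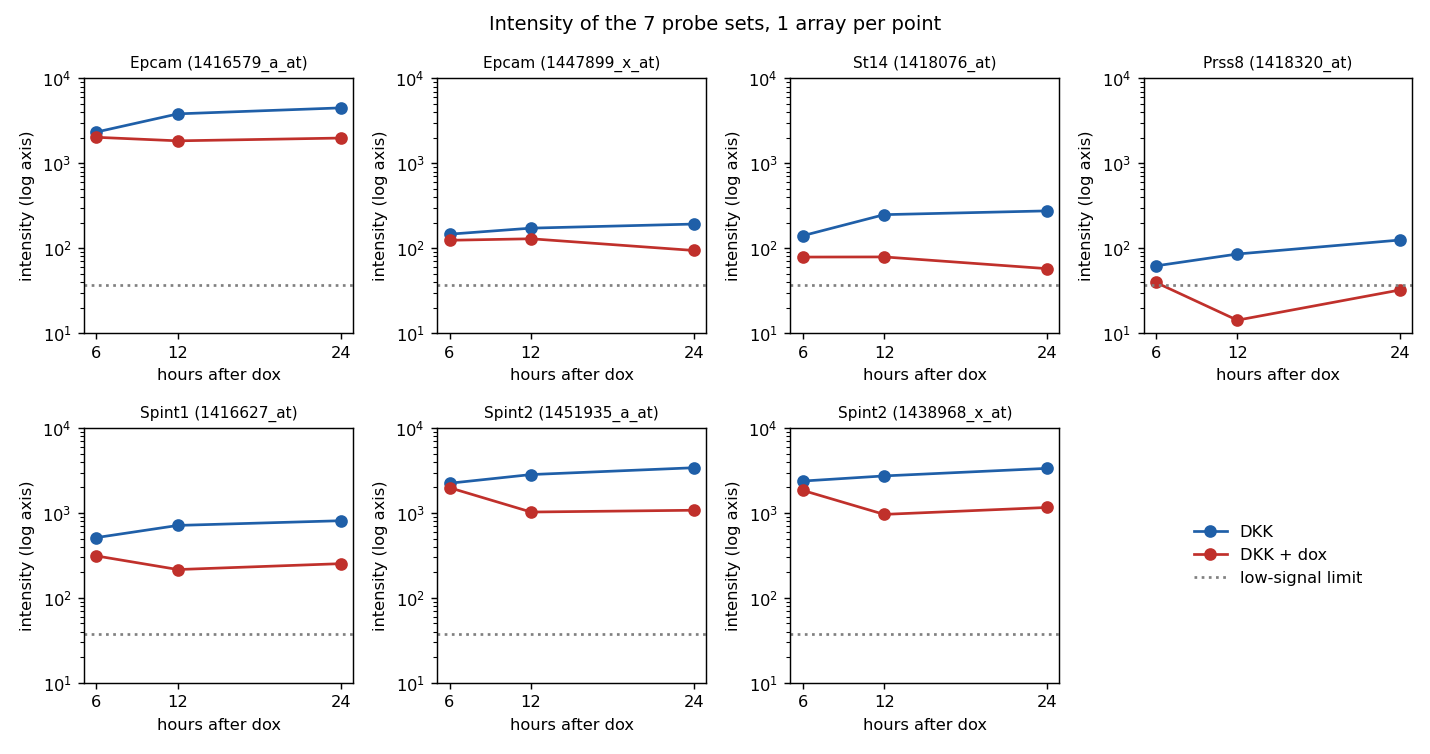
Intensity (log axis) against hours after dox for the 7 probe sets of the 5 genes, with DKK in blue, DKK + dox in red, 1 array per point and the low-signal limit of 37.2 dotted. In each panel every DKK array lies above every DKK + dox array, and for Prss8 the DKK + dox arrays at 12 and 24 hours lie under the limit.

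The protease matriptase was lower from the first time on. At 6, 12 and 24 hours, the order used for every gene below, the intensity of St14 (chromosome 9, 31088590 to 31131811) was 140, 248 and 275 without dox and 78.7, 78.9 and 57.4 with it. The DKK arrays were thus 1.78, 3.15 and 4.79 times the DKK + dox arrays, with a gap that was already present at 6 hours and was wider at each later time. On the log2 scale the differences were -0.70, -1.43 and -1.92. The fitted difference was -2.14 (standard error 0.23, adjusted p = 0.00231 from limma), rank 24 from the most negative of 14755 genes. It was the largest of the 5 at the offset used, but the order rested on the settings: Prss8 led with an offset of 1 (-2.54 against -2.49 for St14), and Spint1 led with an offset of 50 (-1.85 against -1.79) and without the 24 hour pair (-3.16 against -2.85).

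Prss8 (chromosome 7, 127925717 to 127930149), the prostasin gene, was read close to the low-signal limit. Its intensity was 61.9, 85.4 and 125 without dox and 39.6, 14.2 and 32.3 with it. The DKK + dox arrays at 12 and 24 hours are under the limit of 37.2, so the size of the difference there is poorly measured. The log2 differences were -0.46, -1.61 and -1.46, and the fitted difference was -1.81 (standard error 0.34, adjusted p = 0.0139 from limma). With an offset of 50 in place of 20.6 the fitted difference was -1.30, with an offset of 1 it was -2.54, and with linear time the gene did not pass (adjusted p = 0.0820 from limma).

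Both Kunitz inhibitors fell along with the proteases. The intensity of Spint1 was 514, 714 and 812 without dox and 312, 216 and 253 with it. All 3 DKK + dox arrays were below the lowest DKK array, and the log2 differences were -0.68, -1.64 and -1.60. The fitted difference was -1.98 (standard error 0.27, adjusted p = 0.00545 from limma).

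Spint2 is read by a pair of probe sets. On the one with the higher mean, 1451935_a_at, the intensity was 2243, 2838 and 3416 without dox and 1987, 1027 and 1078 with it. At 6 hours DKK was 1.13 times DKK + dox, and at 12 and 24 hours 2.76 and 3.17 times, so most of the gap appeared between 6 and 12 hours. The log2 differences were -0.17, -1.45 and -1.64, with a fitted difference of -1.84 (standard error 0.21, adjusted p = 0.00305 from limma). The other probe set, 1438968_x_at, gave -0.36, -1.49 and -1.51 at the 3 times. The x in its name marks a probe set that can also bind other transcripts, yet its readings of 2380, 2735 and 3359 without dox and 1850, 963 and 1163 with it lay close to those of the first.

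Epcam was read at a high level and was lower with dox than without it. On probe set 1416579_a_at its intensity was 2337, 3826 and 4500 without dox and 2026, 1840 and 1985 with it, so the DKK + dox arrays stayed nearly level while the DKK arrays were higher at each later time. The log2 differences were -0.20, -1.05 and -1.17, with a fitted difference of -1.33 (standard error 0.15, adjusted p = 0.00291 from limma). The dimmer probe set 1447899_x_at read 146, 172 and 193 without dox and 124, 129 and 94.0 with it. Its differences of -0.21, -0.37 and -0.89 were smaller at 12 and 24 hours. When every probe set was tested on its own, all 7 passed (adjusted p 0.00161 to 0.0160 from limma). The differences in size between the 5 genes were not tested.

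On all 7 probe sets, every DKK array was above every DKK + dox array. This separation held for 5 of 5 genes, against 7.09% of all genes tested. At 6 hours 0 of the 5 genes were at least 2-fold lower (0.468% of all genes), and at 12 and at 24 hours all 5 were (2.25% and 2.2% of all genes). The median difference of the 5 genes was -0.46 at 6 hours, -1.45 at 12 hours and -1.60 at 24 hours, while the median of all genes tested was -0.04, 0.03 and 0.02. St14 and Spint1 were below the 5th percentile of all genes (-0.54) already at 6 hours. Each of these is a difference of 2 arrays and carries no test, and the timing was not tested.

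**Figure D3:**
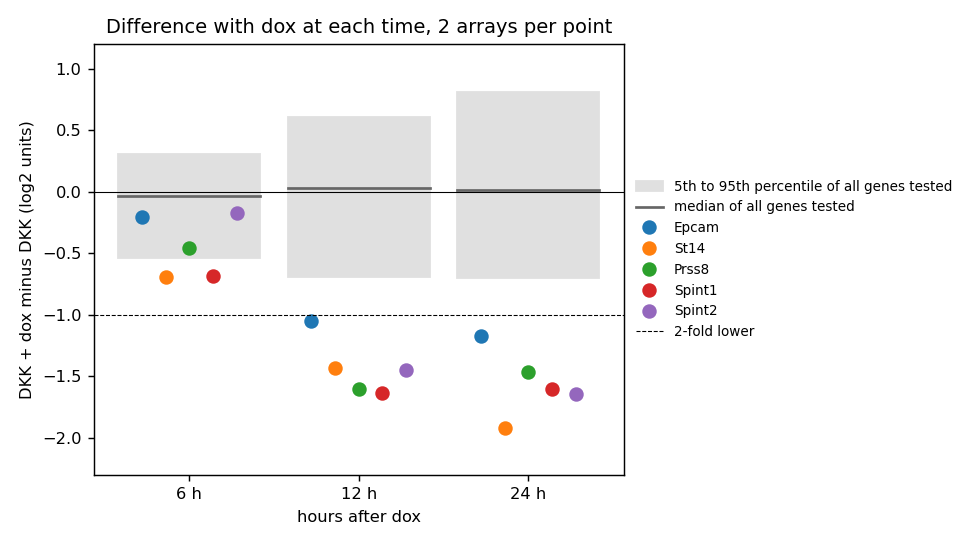
DKK + dox minus DKK in log2 units at 6, 12 and 24 hours for the 5 genes (colored points), with the 5th to 95th percentile of all genes tested as a grey box and their median as a grey line. At 6 hours the 5 genes lie between -0.70 and -0.17, and at 12 and 24 hours all lie under the dashed line that marks 2-fold lower.

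The gap at 24 hours is made up of the gap at 6 hours and of the later change in each culture. The 6 hour gap was -0.20 for Epcam, -0.70 for St14, -0.46 for Prss8, -0.68 for Spint1 and -0.17 for Spint2. Between 6 and 24 hours in DKK alone, all 5 genes were higher at the later time, by log2 differences of 0.94 for Epcam, 0.88 for St14, 0.82 for Prss8, 0.64 for Spint1 and 0.60 for Spint2. All 5 were at least 1.5-fold higher, which 7.85% of all genes were, and the median over all genes was -0.08. In DKK + dox over the same interval Epcam was nearly level (-0.03), Prss8, Spint1 and St14 were at -0.19, -0.28 and -0.35, and Spint2 was at -0.87. The 24 hour gap of Epcam on this probe set thus lay mainly in the higher DKK reading. The dimmer Epcam probe set had about equal later parts (0.35 in DKK and -0.34 in DKK + dox), after -0.21 at 6 hours. For Spint2 the lower DKK + dox reading was the largest part. For Spint1 the 6 hour gap (-0.68) and the DKK change (0.64) were close in size and larger than the DKK + dox change (-0.28). In DKK, 4 of the 5 genes had more of this difference between 6 and 12 hours than between 12 and 24 hours, Prss8 being the exception (0.36 and 0.46), and the other probe set of Spint2 also had the reverse order (0.20 and 0.29). These differences compare single arrays, and no test was made.

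**Figure D4:**
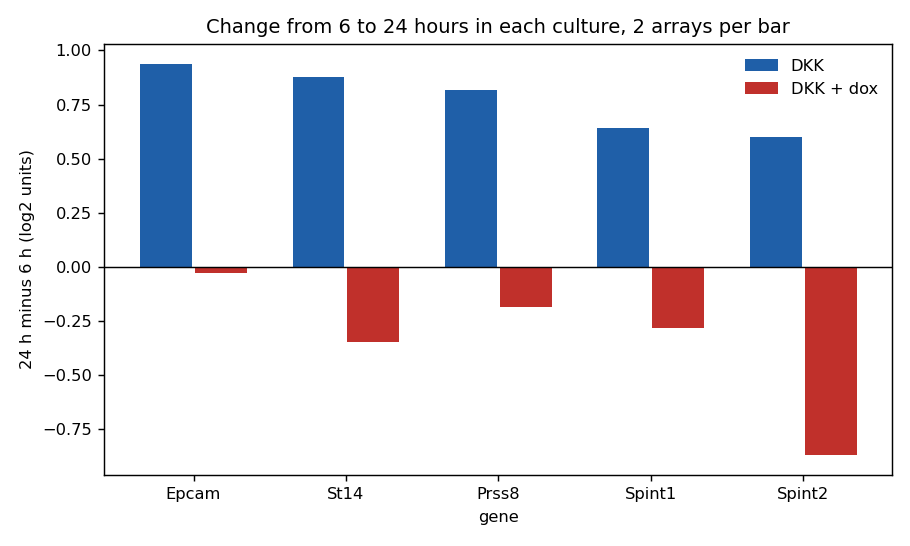
Log2 difference between 24 and 6 hours for each gene in DKK (blue) and DKK + dox (red), 2 arrays per bar. All 5 DKK bars lie between 0.60 and 0.94, and the DKK + dox bars lie between -0.87 and -0.03.

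Over the 6 arrays the log2 profiles of the 5 genes resembled each other, with Pearson's r of 0.87 to 0.97 over the 10 pairs of genes. The arrays share a condition and a time course, so r is given as a description. The genes most like the mean standardized profile of the 5 were Hspa4l, a heat shock protein (r = 0.997), the class I histocompatibility genes H2-D1 (r = 0.997) and H2-K1 (r = 0.996), Cdh1 (r = 0.996) and the fatty acid transporter Slc27a2 (r = 0.995). H2-D1 and H2-K1 are near-identical relatives read here by probe sets that can bind both, so they are uncertain as separate genes. H2-K1 read 556, 922 and 991 without dox and 414, 306 and 336 with it, and its fitted difference was -1.81 (adjusted p = 0.00526 from limma).

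Other membrane serine proteases gave no call in either direction. Of 14 such genes tested, St14 and Prss8 fell, none rose and 12 did not pass. Over all genes tested 6.38% fell and 8.32% rose, and the count among the 12 was not tested against these shares. Another 8 with a probe set were under the low-signal limit. The median difference at 24 hours of these other 12 was -0.01. Of them Hpn, which encodes the transmembrane protease hepsin, had the lowest unadjusted p. It read 71.7, 86.6 and 75.9 without dox and 38.5, 62.7 and 33.6 with it, with a fitted difference of -0.89 (adjusted p = 0.0598 from limma). At an unadjusted p under 0.05 there were 2 of the 12, Hpn on the lower side and Prss27 on the higher side (fitted difference 0.65, adjusted p = 0.104 from limma). Tpsg1 was at 0.78 at 12 hours and -0.60 at 24 hours and did not pass.

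Most other genes of the inhibitor families did not pass, like most genes tested. Besides Spint1 and Spint2, 11 genes of the Kunitz, serpin, whey acidic and other inhibitor families were tested. Of these 1 fell (6.38% of all genes fell), 2 rose (8.32% of all genes rose) and 8 did not pass, with a median of 0.12 at 24 hours. Wfdc2, a secreted whey acidic protein of epithelia, read 229, 358 and 535 without dox and 125, 93.9 and 110 with it. Its DKK arrays were all above its DKK + dox arrays, and it fell by 2.39 in the fit (limma standard error 0.26, adjusted p = 0.00231), against -2.14 for St14. The genes that rose were Serpinh1 (fitted difference 2.06, adjusted p = 0.00142 from limma) and Reck (1.08, adjusted p = 0.00903 from limma). Serpinh1 encodes a collagen chaperone of the serpin fold that does not inhibit proteases, and Reck encodes a membrane-anchored inhibitor of matrix metalloproteinases, so neither is known as a serine protease inhibitor. Among the 8 that did not pass, 1 gene (App, named after its values were seen) had another probe set that passed on its own on the higher side (fitted difference 0.59, adjusted p = 0.0413 from limma). Serpine2 and F2rl1, further partners of these proteins, were not analysed here.

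Of 10 substrates and downstream receptors tested, Met fell, Tmeff1 rose and 8 did not pass, with a median of -0.01 at 24 hours. Over all genes tested 6.38% fell and 8.32% rose, and most did not pass. Met encodes the receptor of hepatocyte growth factor. It read 77.7, 147 and 174 without dox and 54.5, 33.95 and 48.6 with it, and fell by 1.82 in the fit (limma standard error 0.32, adjusted p = 0.0118). Its other probe set was under the low-signal limit in both cultures at 24 hours, where its difference was -0.27. Tmeff1, a transmembrane protein with follistatin domains, rose by 0.63 (adjusted p = 0.00866 from limma), but its dimmer probe set did not pass (adjusted p = 0.300). Hgf, the growth factor itself, stayed between 25.4 and 54.8, near the limit, with a fitted difference of -0.32 (adjusted p = 0.582 from limma). Cdcp1, a surface protein that matriptase cleaves, was at -0.30, -0.41 and -0.56 at the 3 times (adjusted p = 0.0661 from limma), and Scnn1a, a subunit of the sodium channel activated by prostasin, stayed between 38.3 and 54.7 with a fitted difference of 0.12 (adjusted p = 0.814 from limma).

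Most partners of Epcam did not pass, like most genes tested. Of 14 partners and cleavage enzymes besides Epcam itself, 2 fell (6.38% of all genes fell), 1 rose (8.32% rose) and 11 did not pass, and the median at 24 hours was 0.14. Cldn7, whose claudin is stabilised by binding Epcam, read 258, 1099 and 1655 without dox and 89.1, 183 and 224 with it. It was at -1.35 already at 6 hours, when Epcam was at -0.20, and it fell by 3.31 in the fit (limma standard error 0.37, adjusted p = 0.00264). The tetraspanin Cd9 fell by 1.30 (adjusted p = 0.0147 from limma), though in DKK it was lower at 24 than at 6 hours (847 against 1956), where Epcam was higher. Adam10, a metalloprotease that sheds surface proteins, rose by 1.09 (adjusted p = 0.00553 from limma). Its probe sets disagreed, with 24 hour differences of 1.17 on the one used, 0.83 on another that passed, and -0.40 and -0.47 on those that did not. Fhl2, which binds the intracellular fragment of Epcam, was at 0.89 at 24 hours and did not pass (adjusted p = 0.0512 from limma).

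**Figure D5:**
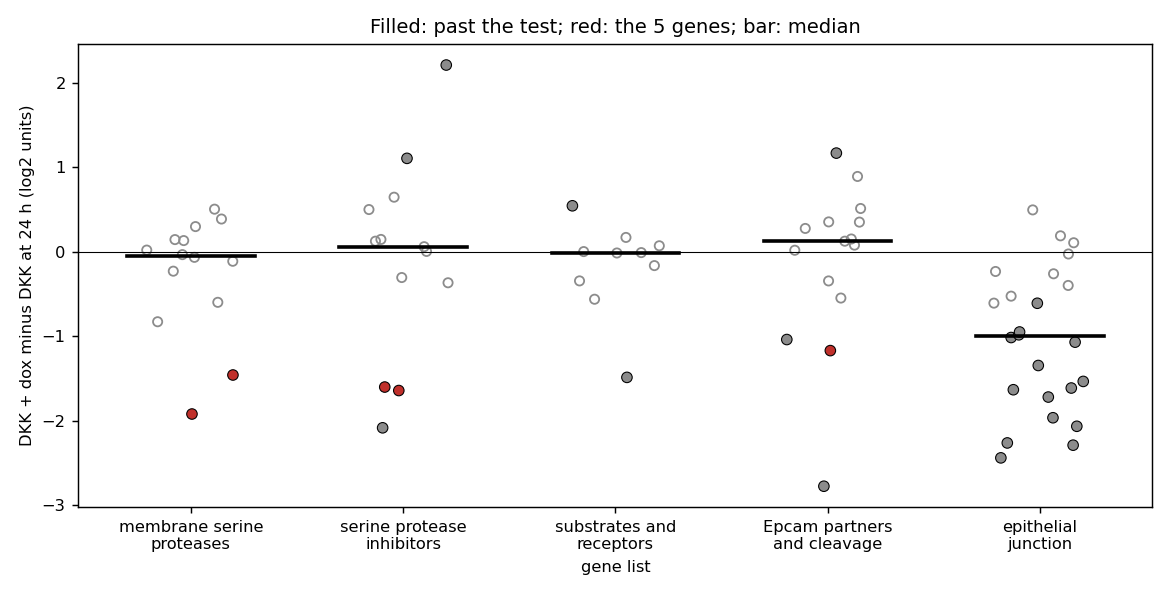
DKK + dox minus DKK at 24 hours in log2 units for the tested genes of 5 lists, 1 point per gene, filled where the gene passed the limma test, red for the 5 members and with the list median as a bar. The members lie at -1.92 to -1.17, while the medians of the first 4 lists lie between -0.05 and 0.12 and that of the epithelial junction list at -1.001.

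A list of epithelial genes, called the epithelial junction list, was set beside the members as the nearest comparison. Besides junction components it holds keratins, splicing factors, transcription factors and trafficking genes. Of 24 tested, 15 fell (6.38% of all genes fell), none rose (0 also at an unadjusted p under 0.05 in limma) and 9 did not pass. Their median difference was -0.34, -0.76 and -1.001 at the 3 times, against -0.46, -1.45 and -1.60 for the 5 members, and the difference between these groups was not tested. For 3 of the 9 (Cldn3, Esrp2 and Marveld3, named after their values were seen) another probe set passed on its own on the lower side, with 24 hour differences of -1.55 to -2.19 for Cldn3, -1.84 for Esrp2 and -2.61 for Marveld3, so the count and the median rest on the choice of probe set. The largest 24 hour differences in this list were those of Cldn6 (-2.44), Ocln (-2.29) and Ap1m2 (-2.27). They encode a claudin, occludin and a subunit of the epithelial sorting adaptor. Each was beyond the most negative member, St14 at -1.92. The claudin gene Cldn7, counted with the Epcam partners, was at -2.78.

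Markers of other cells that embryoid bodies can hold were measured beside these results. Over all genes tested 6.38% fell and 8.32% rose. Of 12 visceral endoderm markers tested, Dab2 and Sox17 rose, Foxa1 fell and 9 did not pass, and their summed intensity ranged from 1106 to 2451 in DKK and from 1300 to 2267 in DKK + dox. The defining marker Afp was under the low-signal limit on all 5 of its probe sets, at no more than 26.3. Of 14 parietal endoderm markers 5 rose (Sparc, Col4a1, Col4a2, Sox7 and Pth1r, with fitted differences of 0.70 to 2.49), Fst fell and 8 did not pass. Among the 8, Gata6 (named after its values were seen) had another probe set that passed on its own on the higher side (fitted difference 0.93, adjusted p = 0.0360 from limma). The summed intensity of the parietal endoderm markers was 4208 to 5588 in DKK and 4960 to 7020 in DKK + dox. Of 9 feeder fibroblast markers Col3a1 and Fbln2 rose and 7 did not pass, with sums of 1253 to 2414 and 1496 to 2030. Acta2, in this list, was at 1.57 at 24 hours (adjusted p = 0.0817 from limma). At 6 hours the sums in DKK and in DKK + dox were 2451 and 2267 for visceral endoderm, 5588 and 5354 for parietal endoderm, and 2414 and 1951 for feeder fibroblast. At 24 hours they were 1131 and 1630, 4208 and 7020, and 1344 and 2030 in the same order. The sums were thus lower with dox at 6 hours and higher with dox at 24 hours. Of 13 ESC and epiblast genes 5 fell, which were Fgf5 (fitted difference -2.63), Pou3f1 (-0.71), Utf1, Dnmt3b and Sox2 (-0.32), none rose (0 also at an unadjusted p under 0.05 in limma), and 8 did not pass, Lin28a among them (-0.32). The part of the other cell types in the members' differences was not tested. Whether their markers were read from such cells or from other cells of the culture was not tested either. The paper counts Sox17 among epiblast markers. Within the ESC and epiblast list, Zfp42 and Dppa5a were lower at 24 than at 6 hours whether or not dox was given. The log2 change of Zfp42 was -3.01 without dox and -2.99 with it, and that of Dppa5a was -0.97 and -1.08. Dppa4 was also lower at 24 than at 6 hours, with log2 changes of -0.69 without dox and -0.60 with it. The list as a whole did not share this, since the median change of the 13 without dox was -0.03 and Fgf5 was higher by 2.30.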

How the data were processed

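RNA from 6 A2.Snail cultures was hybridised to Affymetrix mouse expression arrays. By the study's methods, dChip (version not given in the sources used here) was used by the authors for normalization and modeling, and the deposited table holds intensity on a linear scale, never below 1. Array medians were 53.5 to 63.7, with 37.5 to 41.3 percent of the probe sets no brighter than the low-signal limit of 37.2. The number of arrays limits the precision.

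By GEO's platform annotation 34945 probe sets had 1 symbol, 932 several and 9160 none. Of those with 1 symbol, 34741 matched a RefSeq gene of GRCm38.p6 by Entrez ID. The probe set with the highest mean stood for a gene, and 3438 genes with no value above the limit were left out. limma 3.58.1 in R 4.3.3 fitted log2(intensity + 20.6) using 4 coefficients (lmFit, then eBayes with a trend on mean intensity; 5.5 prior degrees of freedom) and Benjamini-Hochberg adjustment over 14755 genes. The fit was checked on simulated data whose effects grew in proportion to hours, as in the model. That check does not cover differences of another shape over time.

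The members and the gene lists were chosen with earlier results of these data known. Named genes are the members, Snai1, Cdh1, fixed partners, the 3 largest 24 hour differences per list and the 5 most alike profiles. Pou5f1, Sox2 and Afp serve as identity checks, and Zfp42, Dppa4 and Dppa5a were named after their values were seen. Alternatives covered offset, filter, normalization, probe set, fold, model and left-out time. Figures used matplotlib 3.10.9 and Python 3.11.15.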

Additional observations from a re-analysis of the deposited data

Results flagged for a closer look

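Among the named genes, 2 genes from the lists for other cell types lay on opposite sides of 0 at the first and last time. Both differences were larger in size than the median absolute difference at that time (0.13 at 6 hours, 0.24 at 24 hours). All 4 intensities were above the low-signal limit. Genes with a smaller difference at either time, such as Col4a2 (-0.001 at 6 hours and 1.69 at 24 hours), were not counted. Sox17 was at -0.34 at 6 hours and 2.04 at 24 hours, and Acta2 was at -0.32 and 1.57. The difference between the times was not tested. None of the 5 members changed sign.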

How the results depend on the processing

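The 5 members had 73 fitted differences under the alternatives, all 73 negative, and 63 of them passed. The count of members called lower was 0 for a constant dox difference, 1 without the intensity trend and 3 with plain probe sets only, where Epcam and Spint2 have no probe set (those 3 all passed); without the 6, 12 or 24 hour pair it was 5 in each case. With linear time it was 4, without Prss8. The cause of the differences was not tested. Over all genes 941 were called lower, against 0 for the constant difference (2927 genes in either direction at an unadjusted p under 0.05 in limma), 76 without the intensity trend, 80 where time was linear, and 533 and 499 without the 6 and 24 hour pairs. Without the 24 hour pair the trend, extrapolated to 24 hours, was -3.16 for Spint1 and -2.94 for Prss8. At 12 and at 24 hours the count at least 2-fold lower was 3 with plain probe sets only, again of 3 measured, and with the mean of all probe sets it was 4 at 12 hours, where Epcam was at -0.71. At 6 hours 2 members were at least 1.5-fold lower. In DKK, 0 members were at least 2-fold higher at 24 than at 6 hours, 1 with an offset of 1, 1 with quantile normalization, 2 with median centring, and 5 at 1.5-fold. The difference of Prss8 where it was read below the low-signal limit is bounded by signal over background. The time block pairs each DKK + dox array with the DKK array of its time, in the constant-difference fit too, and replicate numbers add no pairing since each group holds 1 array.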
